A study of Mus musculus with 6 samples.

Results

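The COPII coat genes are the 10 mouse genes Sar1a, Sar1b, Sec23a, Sec23b, Sec24a, Sec24b, Sec24c, Sec24d, Sec13 and Sec31a, which encode the protein shell of the vesicles that leave the endoplasmic reticulum (ER). They were picked by symbol from the 43548 genes listed, and all 10 were among the 12879 genes tested, whose mean level was 1 FPKM or more (fragments scaled to transcript length and to library size). mRNA was sequenced from Met-1 TripZ-200c cells, a single clone of the Met-1 mammary carcinoma line (FVB/nJ, from a late-stage MMTV-PyMT tumor) carrying a lentiviral pTripZ vector that makes the miR-200c precursor and a red fluorescent protein when doxycycline (Dox) is present. The clone had been sorted against leaky expression and for intermediate induction of the fluorescent protein. The MinusDox group (3 libraries) received vehicle (water) and the PlusDox group (3 libraries) received 1 µg/mL Dox, each for 48 h, and both groups carried the vector. No Dox-treated empty-vector library was analysed here, so an effect of Dox itself and an effect of miR-200c cannot be told apart.

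The SAR1 GTPases bind the ER membrane once loaded with GTP and recruit the inner coat, a heterodimer of a SEC23 and a SEC24 protein. SEC23 speeds GTP hydrolysis by SAR1, SEC24 selects the cargo, and heterotetramers of SEC13 and SEC31 form the outer cage. MicroRNAs of the miR-200 family bind mRNAs, mostly in the 3′ untranslated region (UTR), through a short seed near their 5′ end, and repress the mesenchymal transcription factors ZEB1 and ZEB2. Sec23a is a reported target of this family, which raises the question of how it compared with its paralogue Sec23b and with the rest of the coat.

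The sequences that bear on this comparison are the miRNA and its matches in Sec23a. The mature mouse miR-200c-3p is shown 5′ to 3′ from RefSeq (GRCm38.p6, chr6:124718324-124718346, minus strand), with the seed, bases 2 to 8, in capitals, and miR-200b-3p and miR-429-3p are shown because they carry the same seed.
miR-200c-3p: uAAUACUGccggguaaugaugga
miR-200b-3p: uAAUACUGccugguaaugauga
miR-429-3p: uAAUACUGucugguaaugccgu
Matches were counted in the longest annotated 3′ UTR of each gene (GENCODE M21, GRCm38), reading the transcript strand only. An 8mer was CAGTATTA, a 7mer-m8 was CAGTATT without the last A, a 7mer-A1 was AGTATTA without the first C, and a 6mer was AGTATT alone, so each place was counted once under its longest form. Sec23a lies on the minus strand at chr12:58958383-59012017, and its longest 3′ UTR of 1614 bases held 3 matches of at least 7 bases. They are an 8mer at bases 206 to 213 after the stop codon (shown within chr12:58959780-58959809), a 7mer-m8 at bases 773 to 779 (within chr12:58959214-58959243) and a second 8mer at bases 861 to 868 (within chr12:58959125-58959154). Capitals mark the matched bases, and the transcript strand is printed.
Sec23a 8mer, first: agtttgttttgcctgataCAGTATTAtaat
Sec23a 7mer-m8: aatttcccattgtgttcttCAGTATTttaa
Sec23a 8mer, second: ttgtggttcttactgagaCAGTATTAatat
A shorter annotated Sec23a transcript, with a 3′ UTR of 293 bases, kept only the first 8mer. The 3′ UTR of Sec23b (plus strand, chr2:144556229-144590749) was 374 bases long and held no match, not even a 6mer.

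Sec23a fell 2.20-fold with Dox, while its paralogue Sec23b did not fall. Sec23a (ENSMUSG00000020986) encodes a GTPase-activating subunit of the inner coat. Its FPKM was 32.6, 31.2 and 35.6 in MinusDox replicates 1, 2 and 3 and 15.8, 14.3 and 14.8 in PlusDox replicates 1, 2 and 3. The 3 values with Dox lay close together and far below the 3 without, and the groups did not overlap. The mean went from 33.1 ± 2.23 to 15.0 ± 0.778 FPKM (SD, n = 3 each). On the log2(FPKM + 0.1) scale the change was -1.14 (SE 0.0712, 95% confidence interval -1.31 to -0.97, limma adjusted p = 1.75e-04). Only 0.815% of all genes tested had a more negative change.

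Sec23b (ENSMUSG00000027429), which encodes the other SEC23 subunit, measured 51.1, 55.7 and 53.8 FPKM without Dox and 55.9, 62.4 and 58.6 FPKM with Dox. All 3 values with Dox lay above the 3 without, although the nearest, 55.87 with Dox and 55.73 without, were close together. The mean was 53.5 ± 2.32 FPKM without and 59.0 ± 3.29 FPKM with Dox (SD, n = 3 each), a log2 change of 0.14 (SE 0.0568, interval 0.0044 to 0.27) that did not pass the threshold (limma adjusted p = 0.160). At 95% identity or more over at least 50 bases, Sec23a shared 1.68% of its longest transcript with 1 other gene. Sec23b shared 3.85% of its longest transcript, with matches in 79 other genes. Neither paralogue shared such a stretch with the other.

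The balance between the SEC23 paralogues differed between the groups without overlap. The log2 ratio of Sec23a to Sec23b was -0.65, -0.84 and -0.60 in the libraries without Dox and -1.81, -2.12 and -1.98 in those with Dox. Its mean went from -0.69 ± 0.126 to -1.97 ± 0.153 (SD, n = 3 each), so the ratio itself went from 0.618 to 0.255, a 2.42-fold drop. An exact two-sided permutation test gave p = 0.1, the smallest that 3 against 3 libraries can give (0.2 after Benjamini-Hochberg adjustment over 4 paralogue pairs). Sec23a made up 38.2% ± 2.05 of the summed Sec23a and Sec23b FPKM without Dox and 20.3% ± 1.72 with Dox. The sum of both paralogues was 86.6 ± 2.86 FPKM without and 73.9 ± 2.56 FPKM with Dox, a decrease of the mean by 14.7%, and did not overlap between groups.

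**Figure D1:**
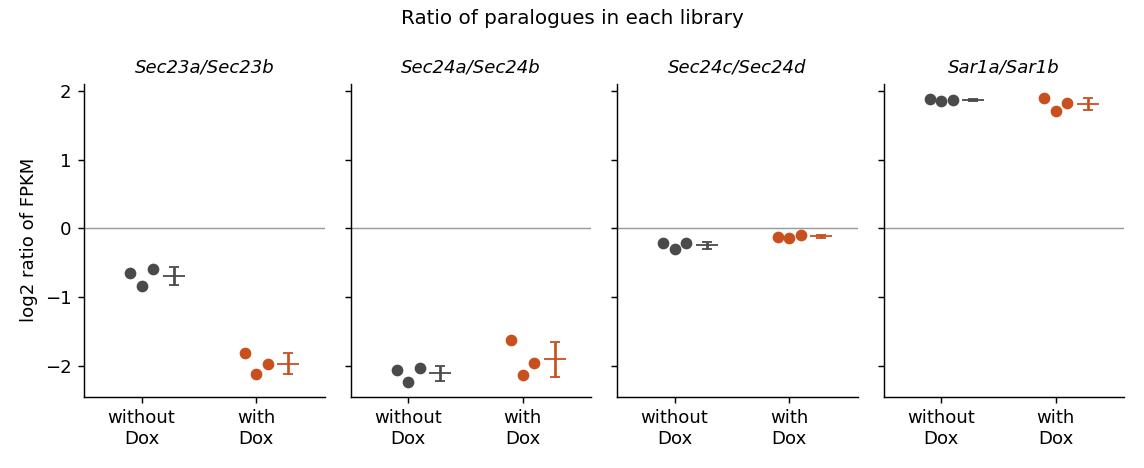
Log2 ratio of paralogue FPKM (y axis) in each library for the 4 COPII pairs, with points for single libraries coloured by group and bars for group means with their SD. The 3 Sec23a/Sec23b ratios with Dox (-2.12 to -1.81) lie below the 3 without (-0.84 to -0.60), and the other pairs move by 0.21 or less in either direction.

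Of the 4 cargo adaptors, Sec24d alone passed the threshold. Sec24d, which with Sec24c forms a pair of close paralogues, had 72.2, 72.9 and 70.3 FPKM without and 64.1, 65.7 and 64.3 FPKM with Dox. The groups did not overlap, and the mean fell from 71.8 ± 1.37 to 64.7 ± 0.858 FPKM (SD, n = 3 each), a 1.11-fold decrease with a log2 change of -0.15 (SE 0.0369, limma adjusted p = 0.0360). This call was lost when any of the 6 libraries was left out, with limma adjusted p between 0.0589 and 0.113. Sec24b, an adaptor of the other pair, had 77.1, 86.1 and 78.9 FPKM without and 67.3, 76.0 and 75.7 FPKM with Dox, with a log2 change of -0.15 and a wider SE of 0.0654 (limma adjusted p = 0.193). Its values with Dox also lay below those without. Sec24c, with 60.5 ± 1.62 and 59.5 ± 0.684 FPKM (log2 change -0.024, limma adjusted p = 0.746), overlapped between groups.

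Sec24a (minus strand, chr11:51692264-51763634) was the only other member with seed matches of at least 7 bases. Its longest 3′ UTR of 2863 bases held a 7mer-m8 at bases 620 to 626 (within chr11:51694497-51694526) and a 7mer-A1 at bases 825 to 831 (within chr11:51694292-51694321), printed here for comparison with the 8mers of Sec23a, again with the match in capitals.
Sec24a 7mer-m8: gtcaagctttaacatctgtCAGTATTttct
Sec24a 7mer-A1: ctgtggttgatagagttaaAGTATTAcaag
Per kilobase of 3′ UTR the matches amounted to 0.699, against 1.86 in Sec23a. The other 3 annotated coding transcripts of Sec24a, with 3′ UTRs of 60 to 492 bases, held none of them. Sec24a measured 18.3, 18.1 and 19.3 FPKM without and 21.7, 17.3 and 19.5 FPKM with Dox, so that the groups overlapped. Its log2 change was 0.063 (SE 0.0898, interval -0.15 to 0.27, limma adjusted p = 0.698), and leaving out PlusDox replicate 1, the highest value, gave -0.018.

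**Figure D2:**
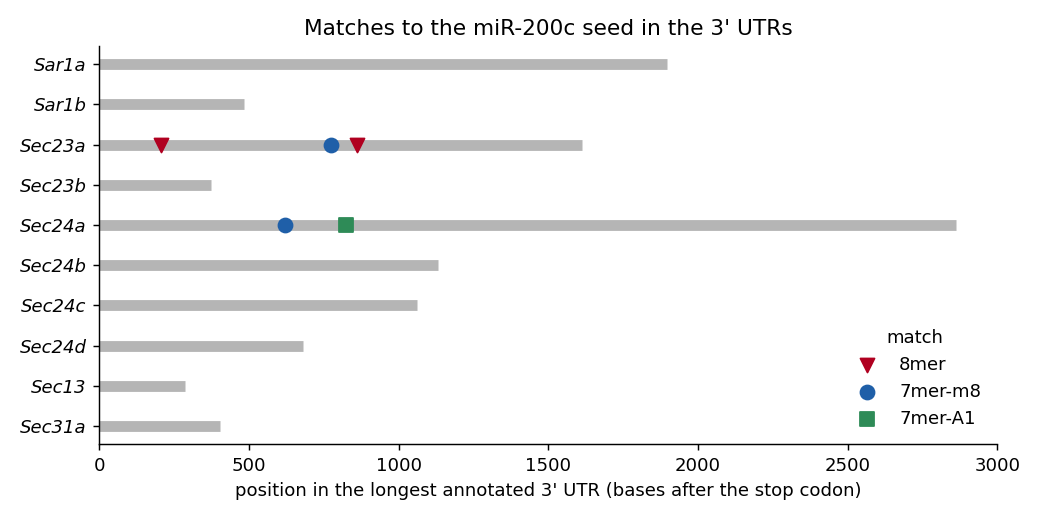
Longest annotated 3′ UTR of each COPII coat gene as a bar from the stop codon (x axis, bases), with markers for matches of at least 7 bases to the miR-200c seed by type. Sec23a carries 2 8mers and 1 7mer-m8, Sec24a carries 1 7mer-m8 and 1 7mer-A1, and the other 8 genes carry none.

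In the outer coat Sec31a fell and Sec13 did not pass the threshold. Sec31a, the rod-forming subunit of the cage, was the most abundant member, with 260.1, 245.7 and 247.7 FPKM without and 218.8, 219.4 and 210.3 FPKM with Dox. The groups did not overlap, and the mean fell from 251.2 ± 7.81 to 216.2 ± 5.09 FPKM (SD, n = 3 each), 1.16-fold, with a log2 change of -0.22 (SE 0.0352, interval -0.30 to -0.13, limma adjusted p = 0.00833). Sec13, its partner, which also serves in the nuclear pore, had 145.4, 146.9 and 148.2 FPKM without and 131.7, 147.2 and 145.0 FPKM with Dox. PlusDox replicate 1 was lowest and the groups overlapped (log2 change -0.058, SE 0.0475, limma adjusted p = 0.480). The 3′ UTR of Sec31a (402 bases) held no match of any kind and that of Sec13 (288 bases) held a single 6mer.

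Neither GTPase gene passed the threshold. Sar1a, the more abundant of the pair, had 142.9, 137.9 and 144.1 FPKM without and 128.2, 137.6 and 125.9 FPKM with Dox. All 3 values with Dox lay below the others, although the nearest, 137.55 with Dox and 137.9 without, were close together. The log2 change of Sar1a was -0.12 (SE 0.0434, limma adjusted p = 0.122). Sar1b, the paralogue whose human counterpart is mutated in chylomicron retention disease, had 38.7 ± 0.742 and 37.3 ± 4.03 FPKM, with overlapping groups (log2 change -0.058, limma adjusted p = 0.676). Sar1b and Sec24a start head to head on chromosome 11 with 52 bases between them, and the interval of the change included 0 for both. Sar1a kept a similar share of the summed GTPase FPKM, 78.5% without and 77.8% with Dox.

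Of the 10 members, 3 (30%) passed the threshold of 0.05 and all 3 were lower, where 15.0% of all genes tested passed, 7.97% lower and 7.06% higher. The values of 6 members did not overlap between groups, 5 lower and 1 higher with Dox, against 35.0% of genes with values in all libraries. The median log2 change of the members was -0.088 and that of all genes tested was 0.0039, with 90% of genes between -0.49 and 0.47. Sec23a lay outside that range and the other 9 members, from -0.22 to 0.14, lay within it. The summed FPKM of all 10 members was 896.7 ± 4.59 without and 815.9 ± 22.9 with Dox, without overlap between groups.

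**Figure D3:**
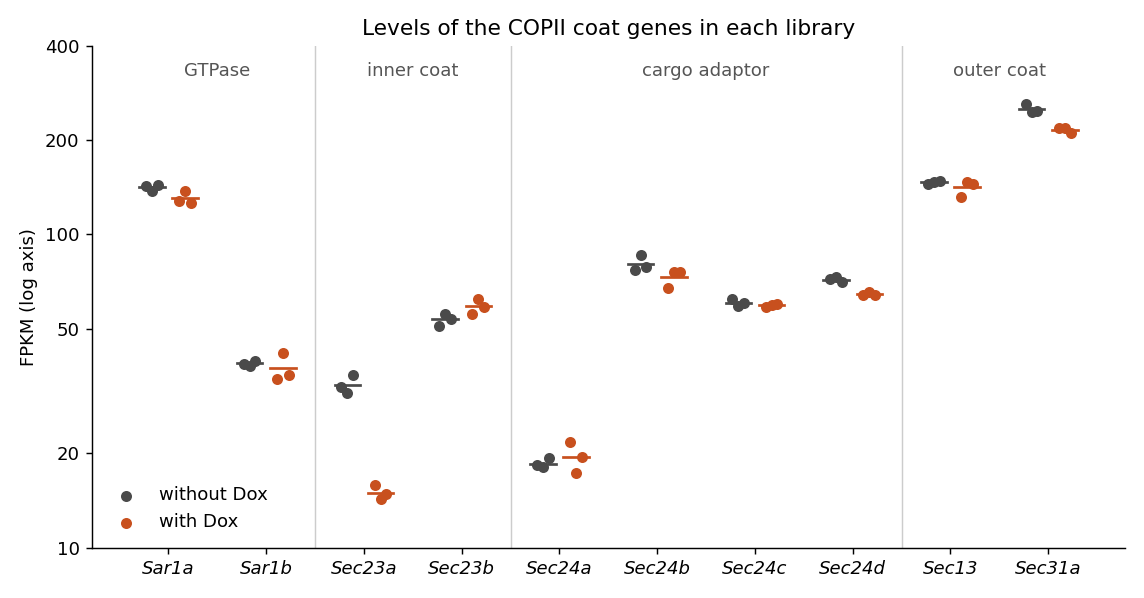
FPKM of each COPII coat gene (y axis, log scale) in the 3 libraries without and the 3 with Dox, with bars for group means. Sec23a drops from 31.2 to 35.6 FPKM down to 14.3 to 15.8 FPKM, while the means of the other 9 genes differ by 1.16-fold or less between groups.

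**Figure D4:**
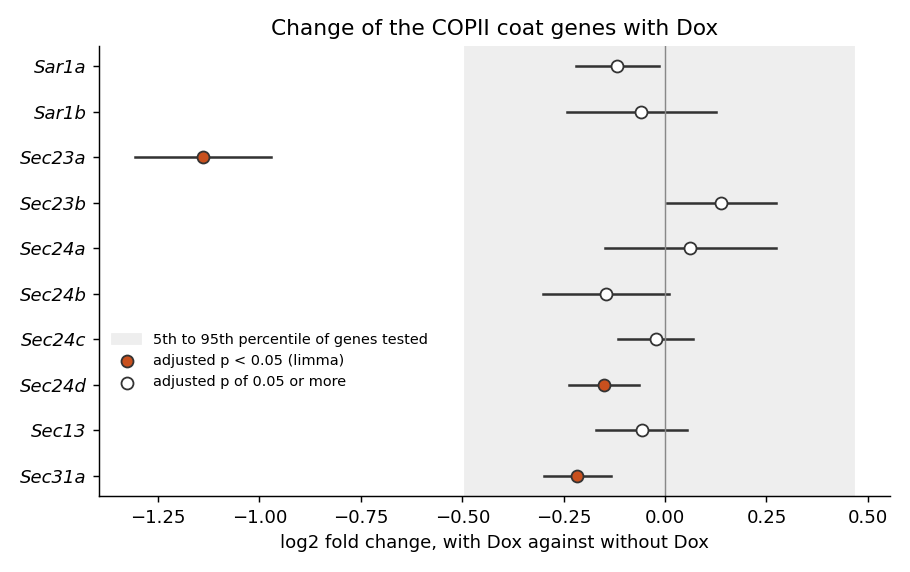
Log2 fold change with Dox of each COPII coat gene (x axis) with its 95% confidence interval from limma, filled where the adjusted p is below 0.05, over a grey band that spans the 5th to 95th percentile of all genes tested. Sec23a stands at -1.14 and the other 9 genes lie between -0.22 and 0.14.

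The order of the levels describes the make-up of the coat mRNAs in each group. Without Dox the order ran Sec31a, Sec13, Sar1a, Sec24b, Sec24d, Sec24c, Sec23b, Sar1b, Sec23a and Sec24a, and no neighbours overlapped. With Dox, Sec23a took the last place below Sec24a, and 2 pairs of neighbours overlapped, Sec13 with Sar1a and Sec24c with Sec23b. Summed over paralogues, the SEC24 adaptors went from 231.6 ± 3.95 to 216.7 ± 4.19 FPKM and the GTPases from 180.4 ± 3.99 to 167.9 ± 10.1 FPKM. The summed SEC23 to SEC24 ratio went from 0.374 to 0.341. The Sec24a to Sec24b log2 ratio changed by 0.21 (exact permutation p = 0.3) and that of Sar1a to Sar1b by -0.060 (exact permutation p = 0.4), with overlapping groups in both. The Sec24c to Sec24d log2 ratio was higher by 0.13 without overlap between groups (exact permutation p = 0.1, the smallest possible).

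The seed matches of the members can be read against all 10812 genes tested that had an annotated 3′ UTR. At least 1 match of 7 bases or more was found in 22.2% of them, at least 3 in 1.58% and at least 2 8mers in 0.259%. The median log2 change was 0.015 for genes with no match, -0.030 with 1, -0.041 with 2 and -0.088 with 3 or more. The share of genes lower with Dox was 7.33% with none, 14.3% with 1, 14.0% with 2 and 18.1% with 3 or more. The median 3′ UTR also lengthened over these classes, from 1115 to 4496 bases, and its part in the difference was not tested. Sec23a stood at the low end of its class, since 4 of the 171 genes with at least 3 matches had a lower log2 change, as did 2 of the 28 genes with at least 2 8mers. In that class of 28, which includes Sec23a, 11 (39.3%) passed as lower and 2 (7.14%) as higher. Of all genes tested with an annotated 3′ UTR, 8.92% passed as lower and 7.83% as higher. Sec24a stood in the upper part of its class, since 312 of the 443 genes with 2 matches had a lower log2 change. Sec31a and Sec24d, which were lower with Dox, had no match of 7 bases or more. A match describes the letters only and does not show that the miRNA binds there.

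**Figure D5:**
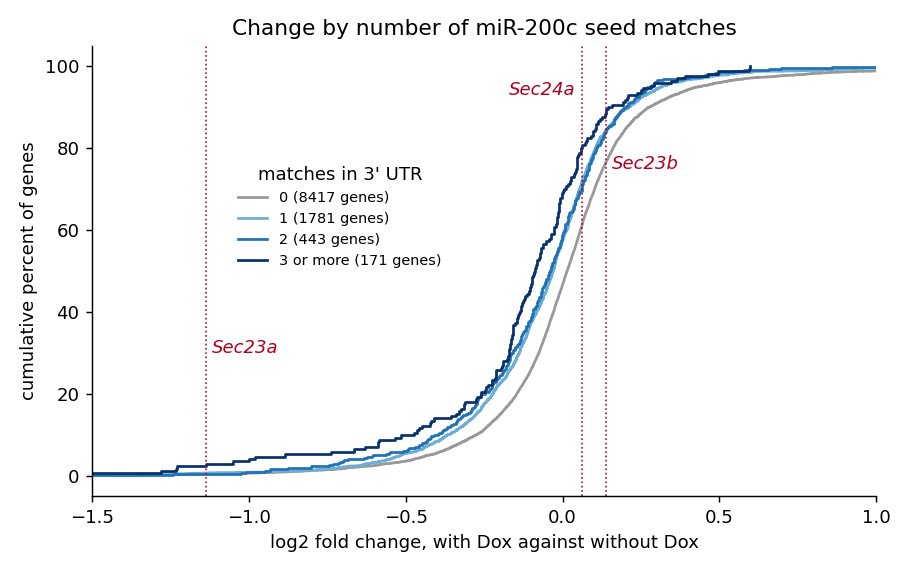
Cumulative percent of genes (y axis) by log2 fold change with Dox (x axis, cropped to -1.5 to 1), by number of miR-200c seed matches of at least 7 bases in the longest 3′ UTR, with dotted lines at Sec23a, Sec24a and Sec23b. The curve for 3 or more matches lies left of the curve for none over most of its range, and Sec23a at -1.14 lies far to the left of all the medians.

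The genes that act around the coat held a share of lower genes near that of all genes tested. They were taken from 5 lists, called the other ER-to-Golgi genes below, which include the COPI coat and CREB3-family and related transcription factors. Of all genes tested, 7.97% were lower and 7.06% higher. Of the 74 genes in the 5 lists, 68 were tested, and limma called 6 (8.82%) lower with Dox and 0 higher. The median log2 change of the 68 was -0.020. The count of 6 went down to 2 without MinusDox replicate 3 or without the variance trend, and to 3 without MinusDox replicate 1, PlusDox replicate 1 or PlusDox replicate 3. Among 13 tested genes of COPII assembly and ER exit sites, limma called 0. Preb, the exchange factor that loads SAR1 with GTP, had 136.0 ± 9.44 and 150.3 ± 5.61 FPKM (log2 change 0.15, limma adjusted p = 0.141), and Sec16a, the scaffold of ER exit sites, had 39.5 ± 2.19 and 44.4 ± 1.34 FPKM (log2 change 0.17, limma adjusted p = 0.0911). Sec31b, the paralogue of Sec31a, reached at most 0.919 FPKM in any library and was below the filter. The cargo receptors held 2 lower genes of 20, the tethers, SNAREs and Rab1 list 1 of 17, the COPI coat, which returns material from the Golgi, 2 of 13, and the list of CREB3-family and related transcription factors 1 of 5.

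Copz2, a COPI coat subunit, was the only gene of these lists that passed with a fold change of at least 25%. It had 57.5, 61.2 and 59.2 FPKM without and 46.2, 41.0 and 46.5 FPKM with Dox, without overlap, and a log2 change of -0.41 (SE 0.0606, limma adjusted p = 0.00538). The other 5, named after their values were seen, were the SNARE gene Gosr2 (log2 change -0.29, limma adjusted p = 0.0117), the cargo receptor genes Tmed4 (-0.27, 0.0252) and Mcfd2 (-0.18, 0.0293), the COPI gene Cope (-0.18, 0.0428) and the ER stress transcription factor gene Atf6b (-0.20, 0.0191). Copz2 and Gosr2 passed in each of the 6 fits that left out 1 library. Tmed4, Mcfd2 and Atf6b passed in 2 of these 6 fits and Cope in 1. Gosr2 carried 1 8mer and Mcfd2 1 match, and Copz2, Tmed4, Cope and Atf6b carried none. Of the CREB3-family transcription factors known to control secretory genes, Creb3l2 had 13.6 ± 0.648 and 12.1 ± 0.394 FPKM (log2 change -0.17, limma adjusted p = 0.161), and Creb3l1 had means of 0.953 and 0.585 FPKM, below the filter.

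The 5 genes whose log2 levels over the 6 libraries were most like those of Sec23a, among 10590 genes averaging 5 FPKM or more, were Tspan15, Pou6f1, Adamts14, Lhfp and Pls3, with Pearson r from 0.998 to 0.999. The 6 libraries fall into the same groups for every gene, so such an r is a description of shared group differences. Tspan15, a tetraspanin gene, for example, had 33.2, 32.9 and 36.5 FPKM without and 19.9, 19.1 and 19.0 FPKM with Dox. Among the members, r with Sec23a was 0.951 for Sec31a, 0.933 for Sec24d, 0.797 for Sar1a and -0.801 for Sec23b. It was weaker for the rest, with 0.624 for Sec24b, 0.438 for Sec24c, 0.434 for Sec13, 0.267 for Sar1b and -0.209 for Sec24a.

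Over the series, 16867 to 18012 genes were above 0 per library and the relative depth, estimated from the spacing of low FPKM values, ranged from 0.919 to 1.49 times that of MinusDox replicate 1. The miR-200c gene was listed at 0 in all 6 libraries, and mRNA libraries do not read mature miRNAs, so it does not check the labels. Its known targets Zeb1 (41.8 to 21.2 FPKM, log2 change -0.98, limma adjusted p = 3.62e-04) and Zeb2 (log2 change -1.81, limma adjusted p = 4.48e-05) were lower with Dox. Of 6 mammary epithelial markers, Krt5 was listed at 0 and the sum, mostly Krt18, ranged from 91.6 to 97.0 FPKM without and from 369.2 to 406.3 FPKM with Dox. Krt8 averaged 0.262 FPKM without and 0.736 FPKM with Dox, and Krt14 averaged 0.0284 and 0.0998 FPKM. Both were below the filter, and neither passed the threshold in the limma fit without it. The defining markers Epcam (mean 0.128 FPKM without and 4.06 FPKM with Dox) and Cdh1 (0.0585 and 0.828 FPKM) were near 0 without Dox. The part of these epithelial genes in the changes of the coat genes was not tested. Leukocyte markers summed to 6.35 to 11.3 FPKM without and 6.72 to 7.57 FPKM with Dox, nearly all from Cd68, with Cd3e at 0, and endothelial markers, nearly all from Cdh5, summed to 4.47 to 5.12 and 4.19 to 4.59 FPKM. In these bulk libraries, fewer cells that express a gene and less RNA per cell cannot be told apart. The labels do not say whether replicates were separate experiments, so the p-values measure the spread between these libraries of a single clone.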

How the data were processed

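Sequenced mRNA was analysed in 3 MinusDox and 3 PlusDox libraries of the TripZ-200c clone, grouped by their labels. Per the labels and methods, the authors prepared stranded TruSeq libraries, sequenced single reads of 50 bases on a HiSeq4000, aligned them with gSNAP and derived FPKM with Cufflinks on GRCm38.p6 (the methods also name FVB_NJ_v1). The deposited FPKM values are normalised for length and library, so no count test was used, and 1 row was kept per gene. The deposited table also holds group means and the authors' own fold changes, p- and q-values, which were not used. Per-sample columns left unmapped numbered 0. Placeholder values (6, in 4 genes) were treated as missing, and 37 of 37 mitochondrial genes were listed at 0.

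FPKM was tested on log2(FPKM + 0.1) with limma 3.58.1 (R 4.3.3, eBayes with trend) for genes averaging 1 FPKM or more, with Benjamini-Hochberg adjustment over 12879 genes and a threshold of 0.05. A pseudocount of 0.1 understates the fold change of low genes. The code of the limma fit, and no other step, was tested on simulated data. Paralogue ratios were compared by exact permutation. Seed matches were counted in GENCODE M21 transcripts, miRNA sequences are from RefSeq (3 of 3 matched), and shared sequence was searched with BLAST 2.17.0 (Python 3.11.15, matplotlib 3.10.9). Total read counts were not given in the sources used here. Named genes are the 10 members, genes of the 5 related lists that passed with a fold change of at least 25%, Preb, Sec16a, Creb3l1, Creb3l2 and Sec31b, the 5 genes most like Sec23a, and Zeb1, Zeb2 and the miR-200c gene. Outside this rule, 5 further genes of the lists that passed were named after their values were seen, and cell type markers were named to check the labels. The members and lists were chosen with earlier results of these data known. Alternatives were the pseudocount, the filter, the scaling, the variance model, the replicate block and leaving out each library.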

Additional observations from a re-analysis of the deposited data

How the results depend on the processing

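Sec23a was lower past the threshold in 15 of 15 alternatives (log2 change -1.18 to -1.09, limma or linear model adjusted p from 1.19e-04 to 0.0101) and Sec31a in 15 of 15 (-0.23 to -0.19). Sec24d passed in 7 of 15, and was lost without the variance trend (adjusted p = 0.0693), under the replicate block (0.0878) and without each library. Hence 2 of the 10 members passed in those settings. The other 7 members passed in none. The Sec24a log2 change, 0.063 with all libraries, ran from -0.018 without PlusDox replicate 1 to 0.15 without PlusDox replicate 2. Of all genes, 1935 passed in the fit reported, 1289 in an unmoderated linear model on FPKM and 1069 to 1384 when single libraries were left out. Of the other ER-to-Golgi genes, 6 passed in the fit reported, 2 without the trend, 2 in the unmoderated model and 2 to 6 when single libraries were left out. The Sec23a to Sec23b log2 ratio changed by -1.36 to -1.20 when single libraries were left out. Deviations from the group means had r from -0.0076 to 0.036 between same-numbered libraries and from -0.051 to 0.024 between differently numbered ones. Values this close, over 3 libraries per group, do not settle whether the numbers pair the libraries. With the replicate block, 1337 genes passed, 1269 of them shared with the fit without it. The 1337 included 2 members and 3 of the other ER-to-Golgi genes. Equal groups fix the log2 change of the Sec23a to Sec23b ratio at -1.28 under the block, so it is no check. An exact test that flips the signs of the 3 same-numbered differences gave p = 0.25, the smallest it can give. The depth of each library is known only relative to the others.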
